A study of Mus musculus with 5 samples.

Results

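The subject is the set of dual-marked sites kept in both conditions: stretches of chromatin in mouse embryonic stem cells (ESCs) that carried an island of H3K9me3 and an island of H3K36me3 with and without L-proline. The study profiled both marks by chromatin immunoprecipitation and sequencing (ChIP-seq) in the TBV2 line, wild-type cells of strain 129/SvP, grown on gelatin without feeders in medium with leukemia inhibitory factor (LIF) and lacking non-essential amino acids. The cells were given 500 µM L-proline for 5 days (L-proline-induced cells, PiCs) or left without it for the same time (ESCs). There was 1 library for each mark in each condition. Differences between PiCs and ESCs therefore carry no replicate error, and none was tested. An input library from ESCs completes the 5 samples, and its values were not analysed here. TBV2 is a single line, and the lists hold no gene names against which the cell type could be checked.

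H3K9me3, trimethylation of lysine 9 on histone H3, is laid down in ESCs by enzymes such as SETDB1 and SUV39H, and is known for repeats, retroelements and other silenced chromatin. H3K36me3 is laid down by SETD2, which travels with elongating RNA polymerase II, and is known for the bodies of transcribed genes. The marks are mostly found apart, and places known to carry both include genes of the KRAB zinc finger family and imprinted control regions. On an imprinted region the marks can lie on different parental copies, and ChIP-seq of a cell population cannot tell such a site from one where both marks sit on the same nucleosomes or in different cells.

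The authors deposited, for each library, a list of islands (broad enriched regions) with the number of sequence tags in each. A site was counted as kept where an autosomal ESC H3K9me3 island overlapped, by 1 bp or more each, a PiC H3K9me3 island, an ESC H3K36me3 island and a PiC H3K36me3 island. This held for 593 of 17697 autosomal ESC H3K9me3 islands, 3.35% of them. With each list cut to its 50% richest in tags, 188 sites met the rule. All 593 entered every count below unless a smaller number is given. The sites were thus chosen by the overlaps themselves, which are a description and not a result. Islands lie on a grid of 200 bp windows, so the smallest possible overlap is 200 bp, and 10 of the sites had one that small. Just outside the rule, 5 sites missed a PiC H3K9me3 island by 1 kb or less (the nearest by 400 bp), 12 missed an ESC H3K36me3 island (the nearest by 200 bp), and 6 missed a PiC H3K36me3 island (the nearest by 600 bp). Intervals in brackets are 95% intervals over islands, exact binomial for shares and by order statistics for medians, and they cover counting error only. Positions are those of mouse build mm9 as deposited, and sites are not assigned to genes.

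Of the sites that carried both marks in ESCs, 41.5% (39.0 to 44.1) carried both in PiCs, and H3K9me3 was the mark most often missing from the rest. ESCs had 1428 dual-marked sites, meaning H3K9me3 islands that touched an H3K36me3 island, or 8.07% of the autosomal H3K9me3 list. A PiC H3K36me3 island was found at 94.1% of them (92.8 to 95.3). A PiC H3K9me3 island was found at 44.7% (42.1 to 47.3), against 81.9% (81.3 to 82.5) of the H3K9me3 islands without ESC H3K36me3. The share over all autosomal ESC H3K9me3 islands was 78.9%. At 751 dual-marked sites H3K36me3 was present in PiCs and H3K9me3 was not, at 45 the reverse held, and at 39 neither was found. Counted from the PiC side, 555 of 1548 PiC dual-marked islands met both ESC lists, 35.9% of them.

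Kept sites were denser in ESC H3K9me3 tags than the sites where the mark was missing in PiCs. The kept sites had a median of 31.1 ESC tags per kb (29.7 to 32.8), and the 751 sites without PiC H3K9me3 had 14.7 (14.4 to 15.0), where the autosomal ESC list had 25.6. The middle 50% of kept sites lay between 24.5 and 43.3 tags per kb, and that of the 751 sites between 13.1 and 18.3, so these central ranges did not overlap. The difference was not particular to dual-marked sites. With H3K36me3 in PiCs alone, the median was 31.1 (middle 50% 24.6 to 41.4) with PiC H3K9me3 and 15.7 (13.5 to 19.2) without it. With no H3K36me3, the medians were 27.1 and 18.4, with central ranges that overlapped. Between kept sites and the 751 sites, widths went the other way by a small margin. Kept sites had a median ESC width of 3.2 kb (3.0 to 3.4), the 751 sites 3.6 kb (3.6 to 3.8), and the whole ESC list 2.6 kb. Of the sites above the list median in tags per kb, 420 of 519 were kept, 80.9% (77.3 to 84.2), and of those at or below it 173 of 909, 19% (16.5 to 21.7).

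The gap between dual-marked and other H3K9me3 islands closed as tag density went up. The autosomal ESC list was cut into 5 equal classes of tags per kb. No ESC H3K9me3 island held fewer than 18 tags, so the narrowest islands can only be dense and the classes also sort by width. The part of width in the shares below was not tested. In the sparsest class, up to 18.4 tags per kb, a PiC H3K9me3 island was found at 7.27% of dual-marked islands (5.37 to 9.57) and at 47.6% of islands without ESC H3K36me3 (45.8 to 49.4). In the second class the shares were 43.8% (36.6 to 51.1) for dual-marked islands and 84.0% for the others. In the third class they were 74.4% (67.4 to 80.6) and 90.3%, and in the fourth 83.6% (77.0 to 89.0) and 91.9%. In the densest class, from 36.7 tags per kb, both were 91.3%, with intervals of 87.2 to 94.4 for dual-marked islands and 90.3 to 92.3 for the others. The sparsest class held 633 of the 1428 dual-marked islands and only 42 of the 593 kept sites, while the densest held 264 and 227.

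**Figure D1:**
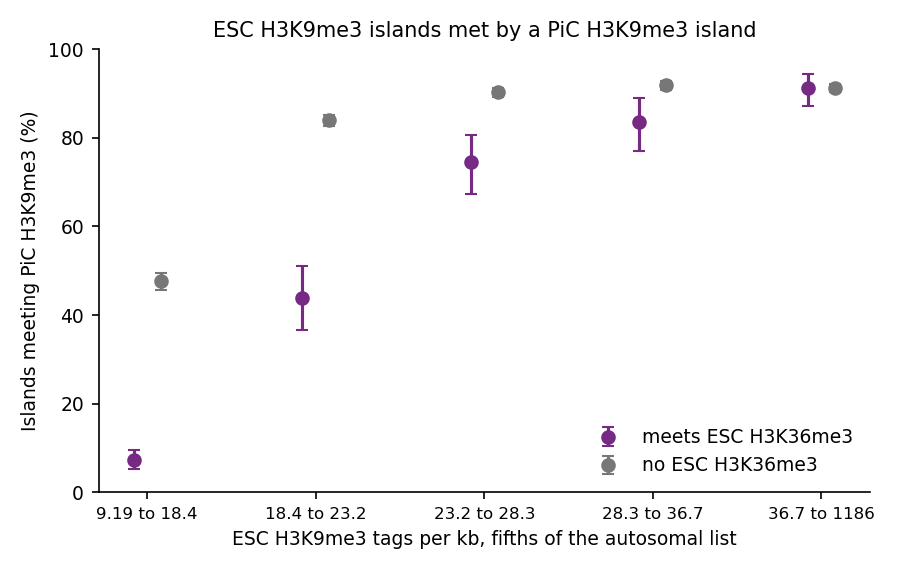
Share of autosomal ESC H3K9me3 islands that met a PiC H3K9me3 island (y axis, %) in 5 equal classes of ESC H3K9me3 tags per kb (x axis), for islands that touched ESC H3K36me3 (purple) and islands that did not (grey), with exact 95% binomial intervals. In the sparsest class the purple point lies at 7.27% and the grey at 47.6%, and in the densest class both lie at 91.3%.

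The strength of the H3K36me3 island also differed between kept sites and those without PiC H3K9me3. ESC H3K36me3 islands at kept sites had a median of 77.0 tags per kb and 14.4 kb in width, and those at the 751 sites 102.2 tags per kb and 18.4 kb. In PiCs the H3K36me3 islands had 61.4 tags per kb and 12.8 kb at kept sites, and 79.1 tags per kb and 19 kb at the 751 sites. Split into 5 equal classes of ESC H3K36me3 tags per kb, dual-marked sites were kept in 47.2%, 47.4%, 48.6%, 38.6% and 25.9% of cases from the sparsest class to the densest. Among sites above the ESC list median in H3K9me3 tags per kb, these shares ran 75.2%, 83.8%, 85.2%, 87.2% and 72.6%, with intervals that overlapped between the first class (67 to 82.3) and the last (60.9 to 82.4). Among sites at or below that median they ran 22.9%, 24.1%, 26.4%, 14.7% and 9.86%, and the intervals of the first class (16.5 to 30.4) and the last (6.21 to 14.7) did not overlap.

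At nearly all kept sites the 4 overlaps met in the same place. A base under all 4 islands at once was found at 583 of the 593 sites, 98.3% (96.9 to 99.2). The rule asked for each overlap separately, but it left little room for another outcome. At the 306 sites that lay wholly inside H3K36me3 in both conditions, any PiC H3K9me3 overlap gives such a base. The share is thus a description. These bases came to 1.53 Mb in 596 pieces, 64.4% of the 2.38 Mb under the ESC H3K9me3 islands of the kept sites. Per site the stretch under all 4 lists had a median of 2.2 kb and reached 15.6 kb. ESC H3K36me3 covered on average 80.1% of the ESC H3K9me3 island at kept sites, 84.0% at the 751 sites without PiC H3K9me3 and 81.2% over all ESC dual-marked sites, and was thus not higher at kept sites. The stretches under all 4 lists made up 27.9% of all autosomal sequence under both marks in PiCs (5.48 Mb) and 34.3% of that in ESCs (4.47 Mb).

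Most kept sites were H3K9me3 islands inside a longer H3K36me3 island. The ESC H3K9me3 island lay wholly inside 1 PiC H3K36me3 island at 66.1% of sites (62.1 to 69.9) and inside 1 ESC H3K36me3 island at 58.5% (54.4 to 62.5). It lay inside in both conditions at 306 sites, 51.6%. It crossed an edge of the H3K36me3 island at 28.8% of sites in PiCs and 35.6% in ESCs. The H3K36me3 island was the narrower one, enclosed by H3K9me3, at 22 sites in PiCs and 28 in ESCs. The remaining 8 sites in PiCs and 7 in ESCs met more than 1 H3K36me3 island. Where 1 island was met, the H3K9me3 island spanned a median of 26.1% of the H3K36me3 width in PiCs and 23.3% in ESCs. Its centre was a median of 2.4 kb from the nearest H3K36me3 edge in PiCs and 2.2 kb in ESCs. At the 751 sites without PiC H3K9me3 these distances were 4.3 kb and 3.7 kb, and 78.0% of them (74.9 to 80.9) lay inside a PiC H3K36me3 island and 68.7% (65.3 to 72.0) inside an ESC one.

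**Figure D2:**
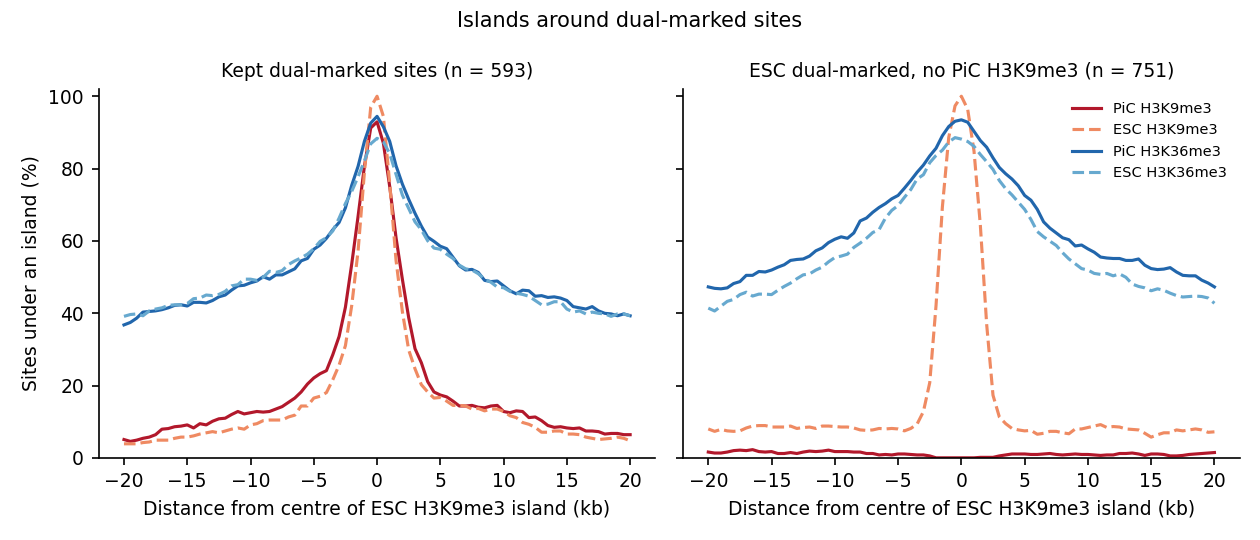
Share of sites under an island of each list (y axis, %) by distance from the centre of the ESC H3K9me3 island (x axis, kb), for the 593 kept sites (left) and the 751 ESC dual-marked sites without PiC H3K9me3 (right); solid lines are PiCs and dashed lines ESCs. At the centre of kept sites 92.9% were under PiC H3K9me3, 94.4% under PiC H3K36me3 and 88.4% under ESC H3K36me3, while 20 kb to the left PiC H3K36me3 still covered 36.8% and ESC H3K36me3 39.1%.

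Around kept sites the median H3K36me3 cover differed little between the conditions. From 10 kb before to 10 kb after the H3K9me3 island, H3K36me3 covered a median of 14.6 kb in PiCs and 14 kb in ESCs, and the median of the PiC/ESC ratio was 1 (1 to 1.01). The middle 50% of sites had ratios between 0.909 and 1.14. At the 751 sites the median ratio was 1.02 (1.01 to 1.04), with 17.8 kb in PiCs and 16.2 kb in ESCs. Over the H3K9me3 island itself, PiC H3K36me3 covered more bases than ESC H3K36me3 at 169 kept sites, 28.5% of them, where the share over all 1344 sites with H3K36me3 in both conditions was 25.7%. It covered fewer at 72 kept sites, 12.1%, where that share was 8.48%, and the same number at 352. Kept sites touched 540 PiC H3K36me3 islands, 3.30% of the autosomal list, and 532 ESC ones, 4.44%. Of these ESC islands 21.1% met 2 or more PiC H3K36me3 islands, against 17.5% of all ESC H3K36me3 islands.

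At most kept sites H3K9me3 spanned more sequence in PiCs than in ESCs, as it did at shared H3K9me3 islands in general. The PiC H3K9me3 islands at a site had a median joined width of 4.2 kb (4.0 to 4.4), against 3.2 kb in ESCs, and the median ratio per site was 1.20 (1.14 to 1.29). The sites were wider in PiCs at 366, of equal width at 43 and narrower at 184 of the 593. The ratio was 1.5 or more at 224 sites, 37.8% (33.9 to 41.8), where 47.6% of the 13965 autosomal ESC islands met by a PiC H3K9me3 island passed that limit. It was 1/1.5 or less at 85 sites, 14.3% (11.6 to 17.4), where the general share was 5.31%. The median ratio over those 13965 islands was 1.43. With a limit of 2 in place of 1.5, 143 kept sites were wider, 24.1% against 31.2% in general, and 40 were narrower, 6.75% against 2.33%. The rule required H3K9me3 in both conditions, so these counts describe the sites and nothing is read from them.

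Edges of H3K9me3 islands at kept sites lay no closer in the 2 conditions than at shared H3K9me3 islands in general. In 229 of the 593 kept sites, 38.6% (34.7 to 42.7), both edges in PiCs lay within 1 kb of those in ESCs, in 30 both edges were identical, and in 197 exactly 1 was. The island reached further at both ends in PiCs at 155 sites and less far at both ends at 66. For these counts and that of 1 identical edge no share over all shared islands was computed. Nothing particular to kept sites is read from them. The centre moved by a median of 0.6 kb. Over all 13965 shared H3K9me3 islands, both edges lay within 1 kb at 45.0% (44.2 to 45.8), both were identical at 5.41%, and the centre moved by 0.5 kb. Both edges were identical at 5.06% of kept sites. A single PiC island was met at 578 sites and 2 at the other 15. For 487 sites, 82.1%, the PiC island met 1 ESC island and no more, so that the pairing was one to one, and 80 sites had a PiC island in common with another kept site. A general share was not computed for this pairing either. Across the 593 sites the Spearman correlation of PiC and ESC widths was 0.42 for H3K9me3, a description over sites that share libraries.

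**Figure D3:**
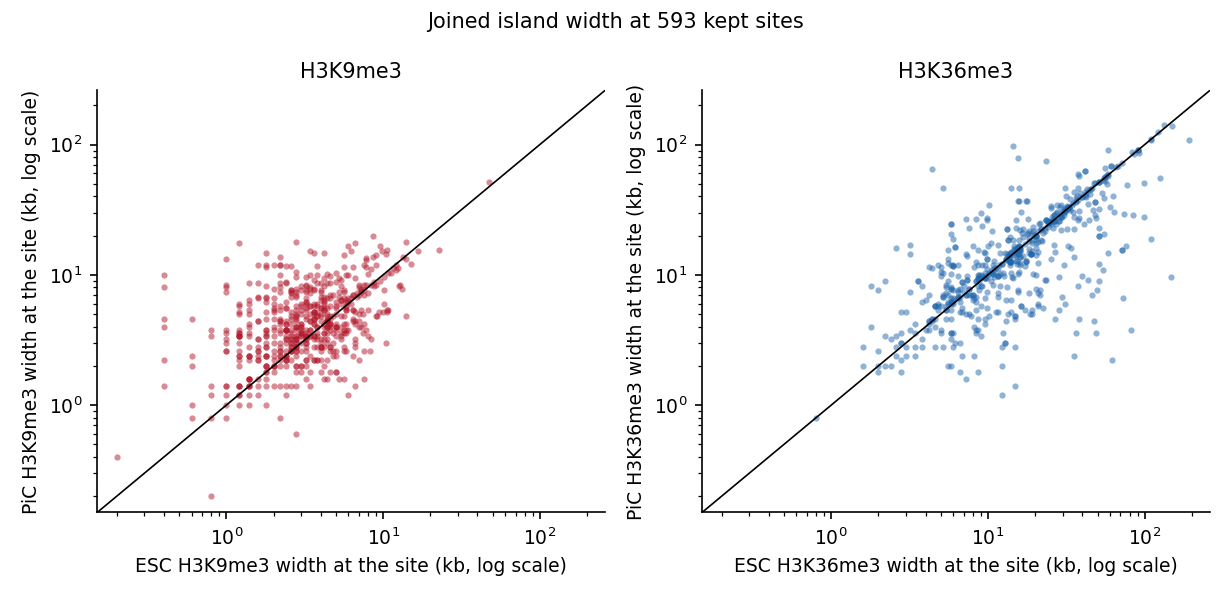
Joined width of the islands at each of the 593 kept sites in PiCs (y axis, kb, log scale) against ESCs (x axis, kb, log scale), for H3K9me3 (left) and H3K36me3 (right); each point is a site and the line marks equal width. H3K9me3 points scatter more above the line (366 sites) than below it (184), and H3K36me3 points gather along it, with a median ratio of 1.

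More than 50% of kept sites lay above the median tags per kb of each of the 4 lists, which was not particular to them. For H3K9me3 it also held at other sites with that mark in both conditions, and for H3K36me3 at the 751 sites without PiC H3K9me3. In H3K9me3, 69.1% of sites (65.2 to 72.8) lay above the median tags per kb of the PiC list and 70.8% (67 to 74.5) above that of the ESC list. In H3K36me3 the shares were 69.5% (65.6 to 73.2) in PiCs and 55.0% (50.9 to 59.0) in ESCs. Median H3K36me3 tags per kb in PiCs were 61.4 at kept sites, 79.1 at the 751 sites and 49.2 in the list. In ESCs they were 77.0, 102.2 and 71.7, so kept sites lay below the 751 sites in both conditions. The PiC H3K9me3 islands at kept sites had a median of 39.8 tags per kb, where the PiC list had 33.3. The PiC median was 36.1 at all ESC H3K9me3 islands met by a PiC H3K9me3 island. At 570 of these with H3K36me3 in PiCs and not in ESCs it was 42.8, and their ESC H3K9me3 median was 31.1, as at kept sites. These values are a description, since the rule required H3K9me3 in both conditions. Tag counts are not scaled between libraries. Where densities in PiCs and ESCs are printed side by side, here or for single sites below, no gain or loss of a mark is read from them. Across kept sites, H3K9me3 and H3K36me3 densities had a Spearman correlation of 0.13 in PiCs and 0.03 in ESCs. Between the conditions it was 0.46 for H3K9me3 and 0.73 for H3K36me3. These correlations are over 593 sites that share libraries and are given as a description.

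A part of the kept sites had islands of both marks that began or ended at the same window. PiC H3K9me3 and PiC H3K36me3 shared an edge exactly at 136 sites, 22.9% (19.6 to 26.5), and ESC H3K9me3 and ESC H3K36me3 at 70, 11.8% (9.32 to 14.7). At the 751 sites without PiC H3K9me3 the ESC share was 3.46% (2.27 to 5.03). At the 570 sites with H3K9me3 in both conditions and H3K36me3 in PiCs alone, the PiC share was 32.6% (28.8 to 36.7), above that of the kept sites. Both edges were shared at 13 sites in PiCs and 5 in ESCs, and at 1 site all 4 lists had both edges in common. These sites were not compared with the input library, which was not analysed here.

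The kept sites with the longest stretch under all 4 lists were found on chromosomes 17, 1, 14 and 10. The longest stretch, 15.6 kb, lay on chromosome 17 in an ESC H3K9me3 island at 6934401 to 6957200. That H3K9me3 island measured 15.6 kb in PiCs and 22.8 kb in ESCs, with 42.9 tags per kb in PiCs and 83.2 in ESCs. The H3K36me3 island over it measured 43.2 kb in PiCs and 41.8 kb in ESCs, with 131.4 tags per kb in PiCs and 183.1 in ESCs. The site thus lay across an H3K36me3 edge in both conditions, with the H3K36me3 island running on past it on 1 side.

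The second longest stretch, 14.2 kb, belonged to the widest kept site, at 90123201 to 90170400 on chromosome 1. Its H3K9me3 measured 51.2 kb in PiCs, as 2 islands, and 47.2 kb in ESCs, with 32.6 tags per kb in PiCs and 26.7 in ESCs. Its H3K36me3 was among the densest of both lists, with 279.8 tags per kb in PiCs and 434.7 in ESCs, and covered 32.2% of the site in PiCs and 34.7% in ESCs. The next stretches were of 11.6 kb at 55158801 to 55173800 on chromosome 14, 10.4 kb at 180153801 to 180164200 on chromosome 1, and 10 kb at 82866601 to 82883400 on chromosome 10. The chromosome 1 site at 180153801 lay wholly inside H3K36me3 in both conditions, while H3K36me3 covered 95.2% of the chromosome 10 site in PiCs and 59.5% in ESCs.

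The 5 kept sites densest in ESC H3K9me3 tags measured 1 to 7.8 kb in ESCs. Apart from 1, they were nearly identical in H3K9me3 extent in both conditions. The densest, at 59972801 to 59973800 on chromosome 15, had 318.8 H3K9me3 tags per kb in PiCs and 384.0 in ESCs, and its H3K36me3 island had the same edges in both conditions, 0.8 kb apart. A pair of sites on chromosome 9, at 123840801 to 123845000 and 123832201 to 123834800, had H3K9me3 islands with identical edges in PiCs and ESCs. The first of the pair had 340.5 H3K9me3 tags per kb in PiCs and 214.8 in ESCs, and 178.8 H3K36me3 tags per kb in PiCs and 532.1 in ESCs. All 4 of its islands spanned the same 4.2 kb, and it was the site where all 4 lists shared both edges. The second had 361.5 H3K9me3 tags per kb in PiCs and 188.1 in ESCs. The site at 39978201 to 39986000 on chromosome 17 was the exception in extent, with H3K9me3 over 13.4 kb in PiCs and 7.8 kb in ESCs. The fifth, at 89919601 to 89920800 on chromosome 7, kept its H3K9me3 edges inside an H3K36me3 island of 13.8 kb in PiCs and 35.2 kb in ESCs. Among all kept sites, 8 lay in the top 1% of tags per kb of both H3K9me3 lists and 1 in the top 1% of all 4 lists.

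The highest PiC/ESC ratios of H3K9me3 width came from ESC islands of 0.4 to 1.2 kb. At 105017801 to 105018200 on chromosome 5 H3K9me3 measured 10 kb in PiCs and 0.4 kb in ESCs, a ratio of 25. At 23593801 to 23594200 on chromosome 8 it measured 8 kb in PiCs and 0.4 kb in ESCs, a ratio of 20. The next were on chromosome 6 at 8184001 to 8185200 (17.4 kb in PiCs, 1.2 kb in ESCs), chromosome 10 at 81687601 to 81688600 (13.2 kb in PiCs, 1 kb in ESCs) and chromosome 16 at 15665401 to 15665800 (4.6 kb in PiCs, 0.4 kb in ESCs). The PiC island met 3 ESC H3K9me3 islands at the chromosome 5 and 6 sites and 2 at the chromosome 8 and 10 sites, so the ratio sets a joined PiC island against 1 of several ESC islands there. On chromosome 10 H3K36me3 also spanned 13.2 kb in PiCs, with the same edges as PiC H3K9me3, and 5.6 kb in ESCs.

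The lowest ratios belonged to sites wholly or mostly inside H3K36me3, as did the highest. Over all kept sites the median share of the ESC H3K9me3 island under H3K36me3 was 100% in each condition. At 84629801 to 84635800 on chromosome 15 H3K9me3 measured 1.2 kb in PiCs and 6 kb in ESCs, a ratio of 0.20, inside an H3K36me3 island of 25.4 kb in PiCs and 24.8 kb in ESCs. Similar ratios were seen on chromosome 7 at 35427601 to 35435200 (1.6 kb in PiCs, 7.6 kb in ESCs) and on chromosome 17 at 12441601 to 12448200 (1.4 kb in PiCs, 6.6 kb in ESCs) and 29824201 to 29827000 (0.6 kb in PiCs, 2.8 kb in ESCs). The last, on chromosome 1 at 8939201 to 8940000, had 0.2 kb in PiCs, a single window with 29 tags, and 0.8 kb with 39 tags in ESCs. At the first 4 of these sites ESC H3K9me3 was sparse, at 15.3 to 22.1 tags per kb, below the list median of 25.6.

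Some H3K36me3 islands held several kept sites in a row. In all, 53 ESC H3K36me3 islands met 2 or more, of which 1 met 5 kept sites and 4 met 4. The island with 5 and the first 2 by position of the 4 tied islands are described. The most, 5, belonged to an island of 14.8 kb at 105240001 to 105254800 on chromosome 5. H3K9me3 covered 51.4% of it in PiCs and 56.8% in ESCs, and 4 PiC H3K36me3 islands together covered 73.0%. The gaps between these PiC H3K36me3 islands overlapped the gaps between the PiC H3K9me3 islands. An island of 13.8 kb at 8930201 to 8944000 on chromosome 1 met 4 kept sites and remained 1 H3K36me3 island in PiCs, which covered 91.3% of it. H3K9me3 covered 50.7% of this island in PiCs and 47.8% in ESCs. One of 51.4 kb at 57825401 to 57876800 on chromosome 4 also met 4 kept sites, and 3 PiC H3K36me3 islands covered 80.2% of it. There H3K9me3 covered 28.0% in PiCs and 42.8% in ESCs.

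**Figure D4:**
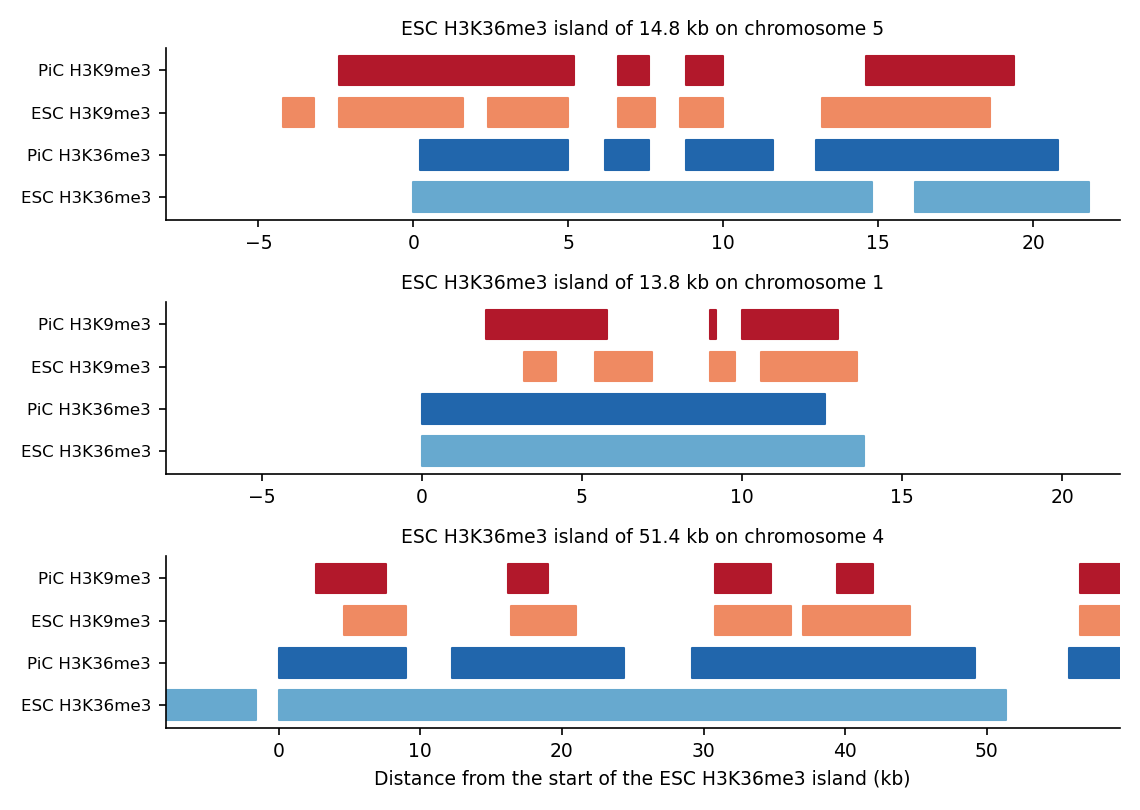
Islands of the 4 lists (rows, PiC above ESC for each mark) along the ESC H3K36me3 island that met the most kept sites, 5, and the first 2 by position of the 4 that met 4 each, by distance from the start of that island (x axis, kb). On chromosome 5 the ESC H3K36me3 island of 14.8 kb is met by 4 PiC H3K36me3 islands. The last of these runs on past its end, from 13 to 20.8 kb. On chromosome 1 the ESC H3K36me3 island is met by 1 PiC H3K36me3 island, and on chromosome 4 by 3.

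Kept sites occurred on all 19 autosomes, in part in groups. The nearest other kept site was within 10 kb for 172 sites, 29.0% (25.4 to 32.8), and within 100 kb for 252, 42.5% (38.5 to 46.6). The same shares were 28.7% and 54.5% among all 1428 ESC dual-marked sites, 20.8% (17.9 to 23.9) and 49.1% (45.5 to 52.8) among the 751 without PiC H3K9me3, and 39.7% and 84.0% among all autosomal ESC H3K9me3 islands. These sets differ in size, which moves such shares, and separate islands under 1 joined PiC island count as neighbours, so nothing particular to kept sites is read from these shares. Joined over gaps of up to 100 kb, the sites formed 95 groups of 2 or more and 341 single sites. The largest such groups held 6 sites each, in 71.4 kb on chromosome 4 from 57830001 and in 46.6 kb on chromosome 5 from 105237601. Over gaps of up to 1000 kb the largest group held 16 sites in 1932.2 kb on chromosome 5, from 104304201 to 106236400, among 54 ESC H3K9me3 islands. The next held 12 sites on chromosome 10, from 80639401 to 82895800, among 50. A group of 9 lay on chromosome 4 from 146764001 to 147248800, among 22.

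By chromosome, the share of ESC dual-marked sites that were kept was lowest on chromosomes 19 and 15. It was 11.8% (3.30 to 27.5) on chromosome 19, 21.0% (15.1 to 27.9) on chromosome 15 and 26.6% (18 to 36.7) on chromosome 11. It was highest on chromosomes 6, at 73.0% (55.9 to 86.2), and 18, at 68.2% (45.1 to 86.1). Chromosome 15 had 167 dual-marked sites, the most of any autosome, and 35 kept ones. As a share of all ESC H3K9me3 islands its kept sites were 3.16%, close to 3.35% over all autosomes, whereas its dual-marked sites that were not kept made up 11.9%. The highest share of all ESC H3K9me3 islands was on chromosome 17, with 45 kept sites or 5.91% (4.34 to 7.82), and the lowest on chromosome 19, with 4 or 1.17% (0.320 to 2.97).

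**Figure D5:**
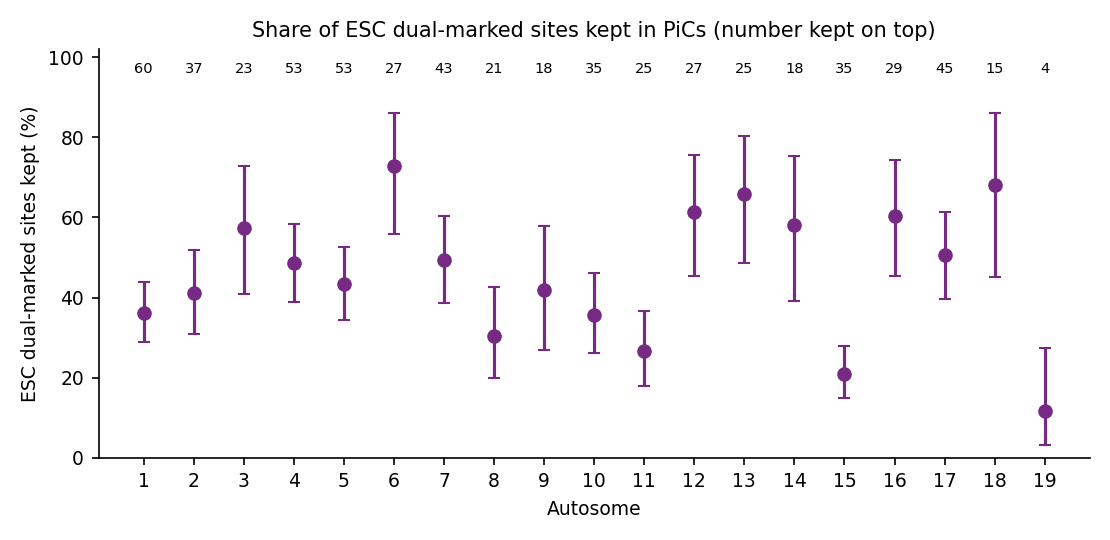
Share of ESC dual-marked sites that were kept in PiCs (y axis, %) on each autosome (x axis), with exact 95% binomial intervals and the number of kept sites along the top. Chromosome 15 lies at 21.0% and chromosome 19 at 11.8%, and chromosome 6 at 73.0%.

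Wide H3K9me3 islands were more often kept dual-marked sites. Of the ESC islands under 2 kb 2.25% (1.88 to 2.68) were kept sites, and the share was 2.96%, 4.54% and 6.72% in the classes from 2, 4 and 6 kb, and 14.2% (9.58 to 19.998) at 10 kb or more, where 27 of 190 were. A wider island has more room to touch another list, and its part in these shares was not tested. Among dual-marked sites alone the order was different. From the narrowest class to the widest 55.8%, 37.5%, 33.2%, 50.7% and 77.1% were kept, so the lowest shares belonged to islands of 2 to 6 kb.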

How the data were processed

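Islands were called by the authors with SICER on build mm9, per the submitters' processing notes. SICER joins windows that pass a threshold into broad islands. The version and settings of SICER, the aligner, and how duplicates and the input were used were not given in the sources used here. Every deposited list gives chromosome, start, end and a whole number, read as the tag count of the island and not scaled to library size. Tag counts in islands summed to 3514489 (PiC H3K9me3), 1511058 (ESC H3K9me3), 15787192 (PiC H3K36me3) and 26055650 (ESC H3K36me3). Library depth is unknown, since these sums cover called islands alone. Starts lie on a 200 bp grid and ends on its last base, and positions are given 1-based. The gene table at hand is of GRCm38, so no gene is named and no sequence is shown.

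Overlaps were computed on autosomes (Python 3.11.15, pandas 2.3.3; intervals with scipy 1.17.1, arrays with numpy 2.4.6). Widths of several islands at a site were added up. On 3 simulated lists the functions made 0 wrong membership calls. Groups came from sample titles. With 1 library per group no p-value was computed. The sites and lists were chosen with earlier results of these data known. Sites named were the 5 with the most bases under all 4 lists, the 5 densest in ESC H3K9me3 tags, the 5 with the highest and the 5 with the lowest width ratio, and the 3 ESC H3K36me3 islands with the most sites, with ties broken by position (4 islands tied for second place). The groups of sites along chromosomes were named after their values were seen. Alternatives changed the overlap, the tag threshold, list sizes, joining, minimum width, very dense islands, the starting list, the flank and chromosome 15.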

Additional observations from a re-analysis of the deposited data

How the results depend on the processing

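No paired analysis was possible because there was a single library for each mark and condition, and for the same reason none could be left out. Of 83 values under 11 alternatives, 67 stayed within the interval of the value reported (or, for the number of sites, within 1.5 times). Some of these had little room to move. The median shares of the H3K9me3 island under H3K36me3 were 100%, the highest possible value, in every setting. The median H3K36me3 ratio was 1 throughout, so it could not be scored as changing side of 1. The median H3K9me3 width ratio could, and stayed above 1. The number of kept sites was 593 and lay between 470 and 583, apart from 188 when lists were cut to their 50% richest in tags. The kept share of ESC dual-marked sites, 41.5%, was 38.7% where each list had to cover 50% of the island, 32.9% with lists of equal size, 35.9% with PiC islands as the unit, and 44.3% without chromosome 15. The share with a base under all 4 lists was 100% by construction where such a base was required, 100% as measured where each list had to cover 50% of the island, and 96.8% with the 50% richest in tags. The median H3K9me3 width ratio, 1.20, was 1.12 with islands joined over 2 kb and 1.11 with PiC islands as the unit. The share inside 1 PiC H3K36me3 island was 71.9% with 50% cover, 71.8% with the 50% richest in tags and 61.4% with PiC islands as the unit, and inside 1 ESC H3K36me3 island 65.1%, 64.4% and 52.8%. Leaving out the top 1% of tags per kb left 565 sites. The cause of these differences was not tested. Depth limits which sparse islands are called, and libraries of unknown depth were not brought to a common one.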
